A study of Mus musculus with 50 samples.

Results

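Peroxisome biogenesis and peroxisomal lipid oxidation were described through 37 listed genes in the livers of pregnant mice and their fetuses after exposure to PFOA or GenX. The genes were listed by function: 11 peroxins of matrix import and membrane assembly, 2 Pex11 genes of organelle division, 7 enzymes and carriers of the core beta-oxidation cycle, 5 auxiliary enzymes for unsaturated chains, 3 genes of alpha-oxidation and branched chains, 2 of hydrogen peroxide metabolism, 3 of ether lipid synthesis and 4 membrane transporters or pore proteins. Each of the 37 symbols matched 1 probe set of the platform annotation, out of 30743 named genes that were measured and tested together. The animals were CD-1 mice, an outbred stock. Dams received vehicle, perfluorooctanoic acid (PFOA) at 1 or 5 mg/kg per day, or hexafluoropropylene oxide-dimer acid (GenX) at 2 or 10 mg/kg per day by gavage between embryonic days 1.5 and 17.5. Dam liver and the liver of female fetuses, which were exposed only through the dam, were taken on gestational day 17.5 and hybridised singly to Affymetrix whole-transcript arrays. The groups are written control, PFOA1, PFOA5, GenX2 and GenX10 in maternal and in fetal liver, with 5 arrays each except 6 for fetal PFOA5 and 4 for fetal GenX10. No animal carried an engineered allele, as far as the labels say. The maternal RNA came from a piece of the left lateral lobe. The labels describe separate dams and litters, so within a tissue the p-values measure the spread between animals as far as those labels go.

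Peroxisomes shorten very long-chain, branched and dicarboxylic fatty acids by beta-oxidation, start the synthesis of ether lipids and break down the hydrogen peroxide that their oxidases release. Peroxins insert the organelle's membrane proteins, carry enzymes made in the cytosol into its matrix and recycle the receptors that brought them, while Pex11 proteins elongate and divide the organelle. In rodent liver, ligands of the nuclear receptor PPARA are known to multiply peroxisomes and to raise their beta-oxidation enzymes, and the fetal liver also houses blood formation.

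The hepatocyte list (14 of 14 genes measured) had a mean log2 signal of 12.18 to 12.24 on the maternal control arrays and 11.08 to 11.23 on the fetal ones. Erythroid genes (9 of 15 measured) lay at 9.66 to 10.78 over the fetal arrays, and 7 of the 9 were not above the negative controls in any maternal group. No erythroid gene passed the test in fetal PFOA1, PFOA5 or GenX10, and 1 was higher in fetal GenX2. Of 12 macrophage and Kupffer cell genes, 6 were higher in maternal PFOA5 (list mean 6.94 to 7.82, against 6.76 to 7.50 in controls) and 4 in maternal GenX10 (7.23 to 7.83). In maternal PFOA5, 4 of 14 hepatocyte genes were lower and 1 higher, and 3 of 12 endothelial and stellate cell genes were lower. Maternal GenX2 and GenX10 each had 1 hepatocyte gene higher and none lower. Of all genes 10.8% were higher and 9.04% lower in maternal PFOA5, and 7.55% were higher in maternal GenX10. In fetal PFOA5, GenX2 and GenX10, 1, 2 and 2 hepatocyte genes and 1, 1 and 2 macrophage and Kupffer cell genes were lower. Of all genes 1.05%, 2.83% and 4.85% were lower there. Fetal PFOA1 and GenX2 each had 1 hepatocyte gene higher. Fetal PFOA5 and GenX2 each had 1 endothelial and stellate cell gene higher, with 1, 1, 2 and 1 lower in fetal PFOA1, PFOA5, GenX2 and GenX10. The part of these cell type lists in the members' results was not tested, except that the mean of the erythroid genes was entered as a covariate in fetal liver. In bulk liver, fewer cells of a type and less RNA per cell cannot be told apart. On 2 fetal arrays, control replicate 3 and GenX2 replicate 2, Xist read 5.39 and 4.50 and the Y-linked Eif2s3y 6.49 and 6.10, which goes against the labelled female sex, whereas every other fetal array had Xist at 10.52 or more. The source names of fetal PFOA5 replicate 6 and fetal GenX2 replicate 5 name another group than their titles, and the titles were followed. Leaving out the low-Xist arrays gave 12, 15, 18 and 17 members called in fetal PFOA1, PFOA5, GenX2 and GenX10, leaving out the arrays of conflicting labels gave 13, 14, 15 and 17, and all arrays gave 13, 16, 17 and 17. Without the arrays of conflicting labels 5 fetal calls no longer passed, at changes close to those with all arrays: Scp2 (0.39, adjusted p = 0.136, limma) and Amacr (0.43, 0.0939) at PFOA5, Pex13 (0.25, 0.0772) and Cat (0.26, 0.108) at GenX2, and Pex3 at GenX10 (0.34, 0.0503), a group that holds neither array but shares the fit. Cat passed at fetal GenX10 in that fit (0.29, 0.0486). Maternal PFOA1 replicate 1 stood near the controls for many members, so maternal PFOA1 results are given with and without it.

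The called log2 changes of the members against control were all upward except those of Pex26 in 3 fetal groups, and the matrix enzymes had higher median changes than the peroxins of import and assembly in each exposure. Counting changes whether called or not, 3, 9, 2 and 5 of the 37 members were below 0 in maternal PFOA1, PFOA5, GenX2 and GenX10 and 8, 9, 6 and 7 in the fetal groups. In maternal liver 1 of 37 members was called at PFOA1 (adjusted p under 0.05 by limma, over all genes tested), where 0.0325% of all genes were called and 0.0293% were higher. There were 25 members higher and none lower at PFOA5 (19.9% of all genes called, 10.8% higher), 23 and none at GenX2 (3.37%, 2.43% higher), and 25 and none at GenX10 (13.8%, 7.55% higher). After a repeated quantile normalization maternal PFOA5 had 21 members higher and 2 lower, Pex11g (-0.21, adjusted p = 0.0226, limma) and Pxmp2 (-0.30, 0.0457). The 3 maternal groups with the most calls shared 21 higher members. In fetal liver 13 members were higher and none lower at PFOA1 (0.953% of all genes called, 0.842% higher), and 15 higher and 1 lower at PFOA5 (3.39%, 2.34% higher and 1.05% lower). Fetal GenX2 had 16 higher and 1 lower (6.73%, 3.9% higher and 2.83% lower), and fetal GenX10 16 higher and 1 lower (9.27%, 4.42% higher and 4.85% lower). These shares of all genes also stand beside the counts by role given below. The 4 exposures of a tissue share their control arrays, so their calls are not independent of each other. The median log2 change of the 37 members was 0.19, 0.46, 0.45 and 0.47 in maternal PFOA1, PFOA5, GenX2 and GenX10 and 0.27, 0.32, 0.28 and 0.29 in the fetal groups, beside medians between -0.06 and 0.02 for all genes. Without maternal PFOA1 replicate 1, 8 members were called at that dose, and without replicate 3 or 4 of that group none was.

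**Figure D1:**
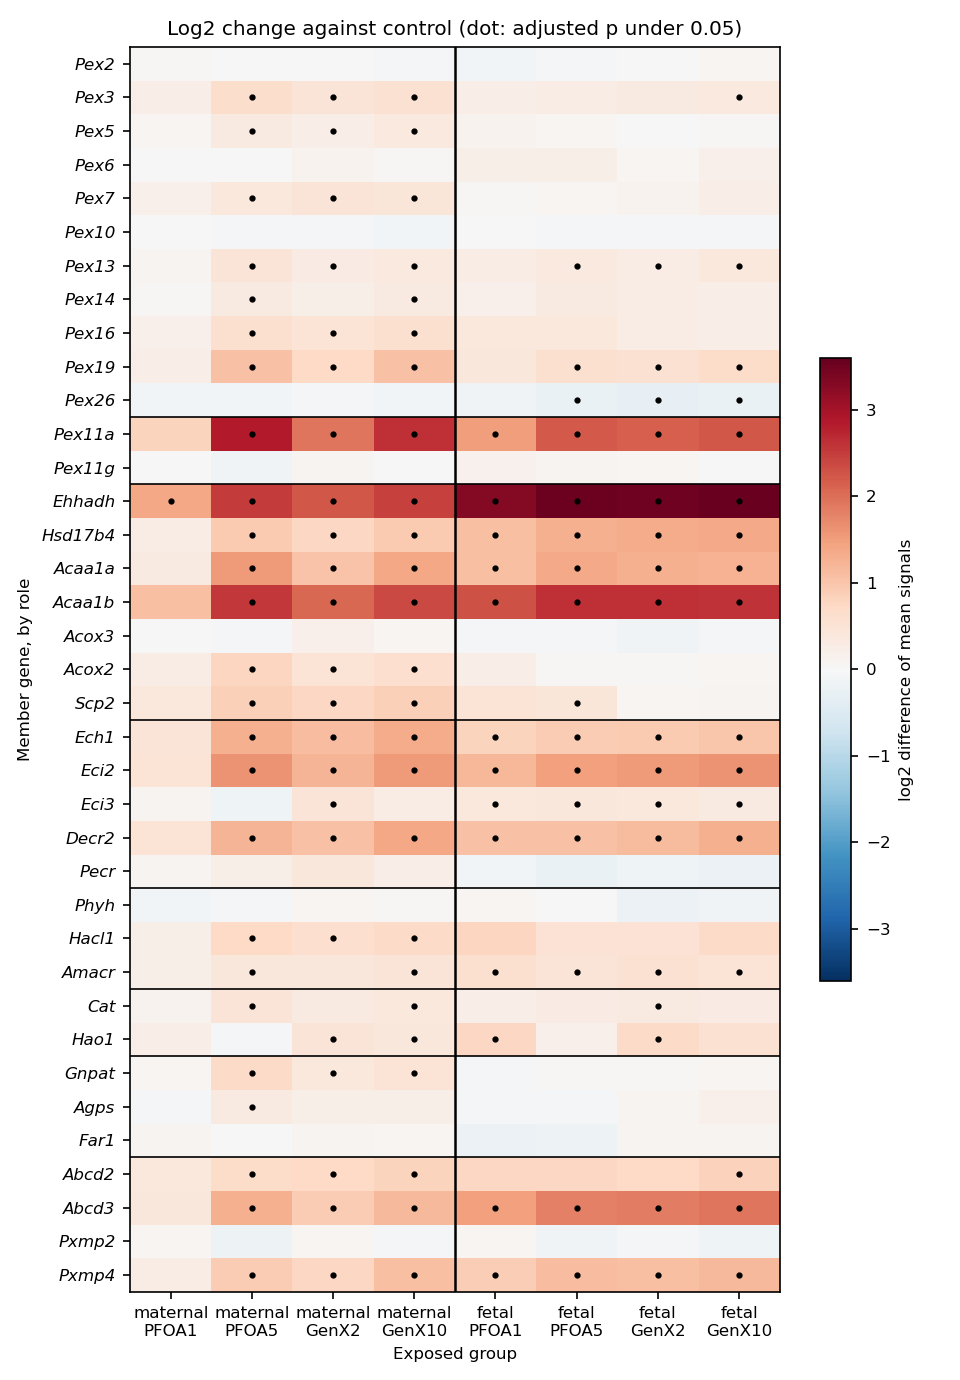
Log2 change against control of the 37 members (rows, grouped by role) in the 4 maternal and 4 fetal exposed groups (columns), with red for higher, blue for lower and a dot where the adjusted p was under 0.05. Ehhadh, Acaa1b and Pex11a hold the deepest red in both tissues, Pex11a from controls that were not above the negative controls, and the dots thin out among the Pex genes, most of all in fetal liver.

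The 10 members called higher in all 4 fetal exposures and in at least 3 maternal ones were Ehhadh, Hsd17b4, Acaa1a, Acaa1b, Ech1, Eci2, Decr2, Abcd3, Pxmp4 and Pex11a. In all, 27 members were higher in at least 1 maternal exposure and 19 in at least 1 fetal exposure. Of these, 8 were called in maternal liver only and none in fetal liver only, a difference in calls that was tested member by member further on. No call was made in any exposure for 9 members: Pex2, Pex6, Pex10, Pex11g, Acox3, Pecr, Phyh, Far1 and Pxmp2. Other settings called Pex11g and Pxmp2 lower in maternal PFOA5 (values above), Acox3 higher in maternal GenX2 (0.17 to 0.19 with array weights, the replicate block or 1 array left out) and Pecr lower in fetal PFOA5 (-0.26 with the replicate block, -0.23 with only the groups compared) and fetal GenX2 (-0.26 without the low-Xist arrays), at adjusted p of 0.0128 to 0.0467 (limma). Pex26 was the 1 member that fell.

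PPARA is known to bind, with its partner RXR, a direct repeat of AGGTCA separated by 1 base, so the promoters of the members were searched for it. RefSeq windows on GRCm38.p6, from 250 bases before to 50 after each start, were at hand for 31 of the 37 members. A member counted where any of its windows matched, whereas the shares are over single windows. None of the 31 held the exact repeat (AGGTCA, any base, AGGTCA) on either strand, which 0.0396% of 32851 windows of all genes did. A looser search, chosen after the exact one had been seen, asked for at least 10 of the 12 fixed letters and found Acox2 and Cat, beside 3.86% of all windows. The single element AGGTCA, which also counts inside any repeat, was found on either strand in Cat, Scp2, Pex11g and Phyh, against 16.3% of all windows. The stretches around these matches are shown, with the looser repeat in capitals in Cat (where it holds the single element) and Acox2 and the single element in capitals in the others, to be read beside the calls given later: Cat, Scp2 and Acox2 were called in at least 1 exposure, and Pex11g and Phyh in none.
Cat, chr2:103485321-103485380, minus strand: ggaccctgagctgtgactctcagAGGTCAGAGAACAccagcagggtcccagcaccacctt
Scp2, chr4:108118624-108118683, minus strand: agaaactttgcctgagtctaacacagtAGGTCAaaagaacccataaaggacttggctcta
Acox2, chr14:8258809-8258838, minus strand: gctgtcccAGGACAGAGGTGAgtcaagagt
Pex11g, chr8:3467789-3467848, minus strand: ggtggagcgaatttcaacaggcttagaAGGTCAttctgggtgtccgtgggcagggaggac
Phyh, chr2:4919020-4919045, plus strand: gtaagttaagtgTGACCTgggcgcag
The members with the largest fitted changes, Ehhadh, Acaa1b and Pex11a, held none of these letters in their windows. The last 120 bases before their starts follow, with no capitals because nothing matched.
Ehhadh, chr16:21787835-21787954, minus strand: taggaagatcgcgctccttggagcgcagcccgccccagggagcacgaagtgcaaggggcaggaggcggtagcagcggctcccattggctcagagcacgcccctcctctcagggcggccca
Acaa1b, chr9:119157094-119157213, minus strand: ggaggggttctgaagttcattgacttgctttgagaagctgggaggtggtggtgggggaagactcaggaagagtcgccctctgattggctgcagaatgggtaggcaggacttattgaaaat
Pex11a, chr7:79743132-79743251, minus strand: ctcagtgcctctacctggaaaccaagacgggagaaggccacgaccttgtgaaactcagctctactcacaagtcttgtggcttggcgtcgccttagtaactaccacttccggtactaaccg
The Scp2 stretch belongs to a start inside the annotated gene (chromosome 4, 108043830 to 108144971) and not to the outer end of that gene. The same holds for the Acox2 stretch (gene on chromosome 14, 8225511 to 8259019). The Acox2 and Phyh matches begin 9 and 36 bases past their starts, and the other matches shown lie before theirs. A match in these letters is a description of the sequence and not a binding site, and the lack of one says only that the letters are not in this window.

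Ehhadh and Acaa1b led the core beta-oxidation cycle, and Ehhadh in fetal liver had the largest fitted changes of the set. In maternal PFOA5 and GenX10 the fitted change of Pex11a, a division gene, was larger than that of either. Of the 7 core genes 6 were higher in maternal PFOA5, GenX2 and GenX10, and 4, 5, 4 and 4 in fetal PFOA1, PFOA5, GenX2 and GenX10. The median log2 changes of the core genes were 0.93, 0.74 and 0.94 in those maternal and 1.09, 1.29, 1.29 and 1.26 in the fetal groups. Ehhadh (chromosome 16, 21761285 to 21787834 on GRCm38.p6) encodes the bifunctional hydratase and dehydrogenase of the cycle. Its log2 signals on the maternal control arrays were 10.40, 10.59, 10.36, 10.55 and 10.47, against 10.54, 11.94, 12.18, 12.29 and 12.36 at PFOA1 and 13.03, 13.03, 12.97, 13.03 and 12.97 at PFOA5. The GenX dams read 12.95, 12.70, 12.78, 12.55 and 12.61 at GenX2 and 13.07, 12.79, 12.96, 12.95 and 12.95 at GenX10. All arrays of the latter 3 groups lay above every control, and PFOA1 replicate 1 lay among the controls. Fetal controls had 8.59, 9.07, 9.37, 9.47 and 8.72, fetal PFOA1 arrays 12.45, 12.00, 12.49, 12.33 and 12.46, and fetal PFOA5 arrays from 12.37 to 12.73 with a median of 12.56. Fetal GenX2 arrays read 12.54, 12.50, 12.60, 12.49 and 12.65, and fetal GenX10 arrays 12.69, 12.59, 12.45 and 12.64. Every exposed fetal array was more than any fetal control. Ehhadh rose by 1.39 ± 0.20 log2 units (SE) in maternal PFOA1 (adjusted p = 0.00746, limma), 2.53 ± 0.20 in PFOA5, 2.24 ± 0.20 in GenX2 and 2.47 ± 0.20 in GenX10, the last 3 with adjusted p of at most 7.8e-07. In fetal liver the rise was 3.30 ± 0.13, 3.52 ± 0.12, 3.51 ± 0.13 and 3.55 ± 0.13 in the same order, or 9.87-fold to 11.7-fold, with adjusted p of at most 1.2e-14. The maternal PFOA1 call was lost without replicate 3 (log2 change 1.31, adjusted p = 0.0504) or replicate 4 (1.28, 0.051), and when only that group and the controls were fitted (1.39, 0.538).

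Acaa1b and Acaa1a, close paralogs on chromosome 9, encode the thiolases that close the cycle. How far their probes tell the paralogs apart was not tested, which also holds for Eci2 and Eci3 on chromosome 13. Acaa1b read 9.49, 8.95, 9.32, 9.41 and 9.43 on maternal control arrays, 9.11, 10.48, 10.77, 10.85 and 10.81 at PFOA1 and 11.84, 12.02, 11.78, 11.83 and 11.87 at PFOA5. At GenX2 it read 12.04, 11.27, 11.30, 11.21 and 11.07, and at GenX10 11.89, 11.61, 11.65, 11.58 and 11.82. The PFOA5 and GenX arrays lay far above the controls, and PFOA1 replicate 1 was inside their range. Fetal Acaa1b was 7.96, 7.84, 8.18, 7.92 and 7.98 in controls, 10.41, 9.97, 10.24, 9.98 and 10.79 at PFOA1 and from 9.88 to 11.15 with a median of 10.66 at PFOA5. The GenX fetuses gave 10.51, 10.75, 10.48, 10.27 and 10.95 at GenX2 and 10.62, 10.60, 10.65 and 10.50 at GenX10. No exposed fetal array came within a log2 unit of the controls. Acaa1b rose by 2.55 ± 0.23, 2.06 ± 0.23 and 2.39 ± 0.23 log2 units (SE) in maternal PFOA5, GenX2 and GenX10, with adjusted p of at most 4.8e-06 (limma). The fetal rise was 2.30 ± 0.18 at PFOA1 and between 2.61 and 2.62 in the other 3 groups, with adjusted p of at most 6.1e-09. Maternal PFOA1 gave 1.08 with an adjusted p of 0.108, and without replicate 1 of that group 1.40 with an adjusted p of 2.7e-06.

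Acaa1a, the less changed thiolase, read 8.79, 8.42, 8.75, 8.56 and 8.77 in maternal controls, 8.46, 9.03, 9.23, 9.12 and 9.11 at PFOA1 and 10.21, 10.25, 10.14, 10.13 and 10.26 at PFOA5. Maternal GenX2 arrays had 10.19, 9.51, 9.69, 9.44 and 9.59 and GenX10 arrays 10.21, 9.85, 10.08, 9.88 and 10.20. Only the PFOA1 group overlapped the controls. In fetal liver Acaa1a was 7.78, 7.62, 7.95, 7.84 and 7.89 in controls, 8.90, 8.88, 8.82, 8.64 and 9.31 at PFOA1 and from 8.57 to 9.71 with a median of 9.23 at PFOA5. Under GenX it was 9.05, 9.17, 9.12, 8.62 and 9.58 at the lower and 9.14, 9.11, 9.14 and 8.93 at the higher dose. All fetal exposed arrays exceeded all fetal controls. The rise was 1.54, 1.03 and 1.39 in maternal PFOA5, GenX2 and GenX10 (SE 0.13 each) and 1.09, 1.37, 1.29 and 1.26 in the fetal groups (SE 0.16 to 0.18), with adjusted p of at most 3.2e-04 (limma).

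Hsd17b4, the second bifunctional enzyme, which handles branched chains and bile acid precursors, rose by 0.93, 0.74 and 0.94 in maternal PFOA5, GenX2 and GenX10 and by 1.09, 1.29, 1.34 and 1.37 in the fetal groups, with SE of 0.09 to 0.10. Scp2, whose products include a thiolase for branched chains and a sterol carrier, rose by 0.85, 0.74 and 0.85 (SE 0.09) in the same maternal groups. In fetal liver Scp2 was called only at PFOA5 (0.44, adjusted p = 0.0489, limma), with 0.49 at PFOA1 (adjusted p = 0.0774) and 0.08 and 0.11 under GenX. That fetal PFOA5 call was lost in 9 of 11 fits that each left out 1 array (lowest log2 change 0.36, adjusted p up to 0.146), the exceptions being PFOA5 replicates 1 and 2, and without PFOA1 replicate 2 Scp2 was called at fetal PFOA1 (0.58, adjusted p = 0.0167). Acox2, the oxidase of branched chains and bile acid precursors, rose by 0.78, 0.50 and 0.60 in maternal liver (SE 0.07, adjusted p of at most 1.1e-04) and changed by 0.23, 0.05, 0.05 and 0.07 in fetal liver with no call. Acox3, another branched-chain oxidase, was at or below the negative controls on all but 2 arrays, both of maternal GenX2, and its log2 changes ran from -0.12 to 0.17 with no call. Without maternal GenX2 replicate 4, Acox3 was called there (0.19, adjusted p = 0.0334).

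**Figure D2:**
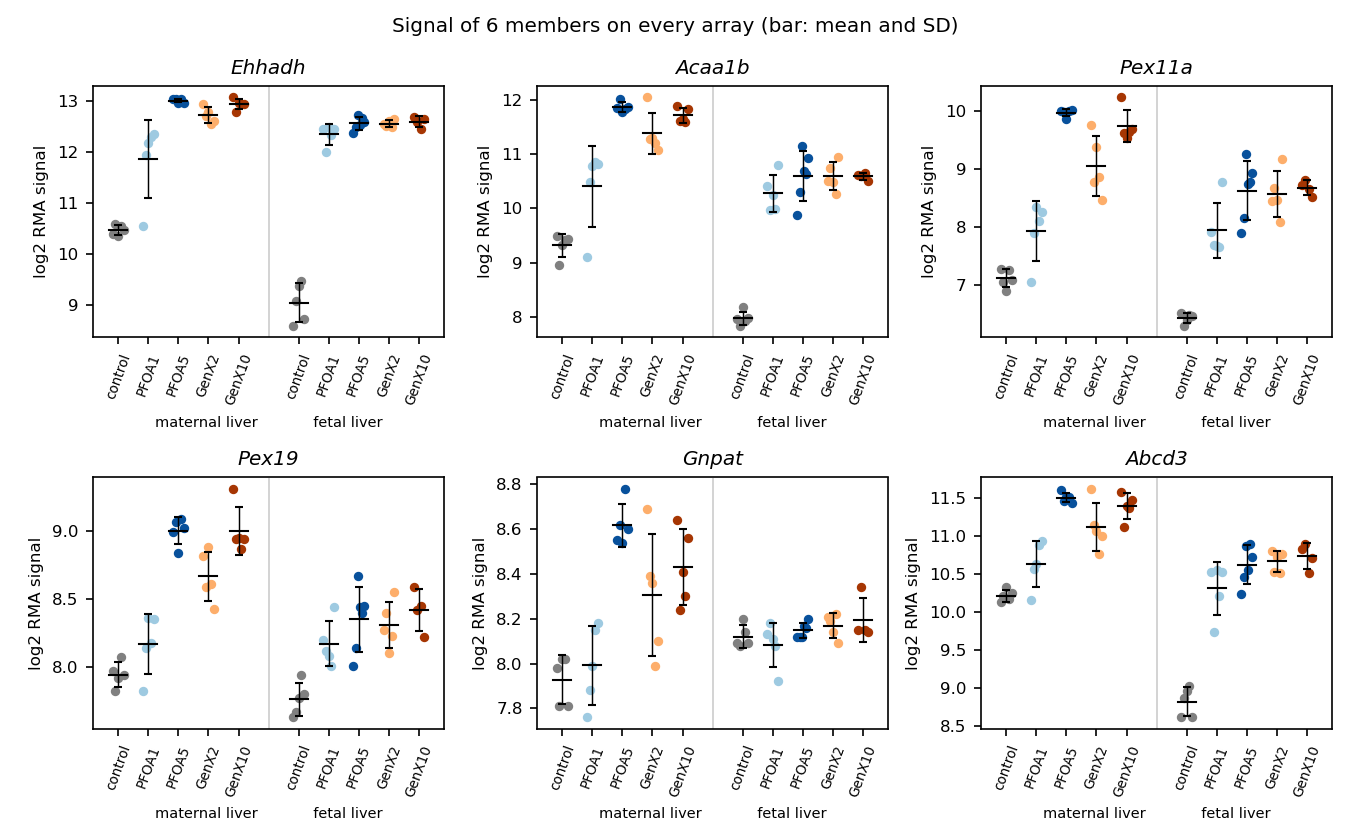
Log2 RMA signal of Ehhadh, Acaa1b, Pex11a, Pex19, Gnpat and Abcd3 on each of the 50 arrays (points), by group, with bars for the group mean and SD. Ehhadh, Acaa1b and Abcd3 start lower in fetal than in maternal controls, and Gnpat rises in the maternal panels only.

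Of the 5 auxiliary enzymes, which reshape double bonds so that unsaturated chains can enter the cycle, 3 were higher in maternal PFOA5 and GenX10 and 4 in maternal GenX2, and 4 were higher in each fetal exposure. Eci2, an enoyl-CoA isomerase, read 8.76, 8.61, 8.75, 8.87 and 9.0 in maternal controls, 8.71, 9.15, 9.37, 9.50 and 9.73 at PFOA1 and 10.51, 10.35, 10.41, 10.56 and 10.30 at PFOA5. The maternal GenX arrays were at 10.29, 10.02, 10.12, 9.72 and 9.94 for GenX2 and 10.66, 10.05, 10.36, 10.28 and 10.24 for GenX10. The PFOA5 and GenX groups did not overlap the controls. Fetal Eci2 was 7.84, 7.97, 8.19, 8.27 and 8.09 in controls, 9.20, 8.88, 9.46, 9.22 and 9.52 at PFOA1 and from 9.25 to 9.84 with a median of 9.55 at PFOA5. It was 9.66, 9.53, 9.61, 9.39 and 9.83 at fetal GenX2 and 9.96, 9.64, 9.57 and 9.63 at fetal GenX10. Each fetal exposed array lay above each fetal control. Eci2 rose by 1.63, 1.22 and 1.52 (SE 0.14) in maternal PFOA5, GenX2 and GenX10 and by 1.19, 1.47, 1.53 and 1.63 (SE 0.12 to 0.13) in fetal liver, with adjusted p of at most 6.0e-06 (limma).

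Ech1, a dienoyl-CoA isomerase also found in mitochondria, had 9.12, 8.78, 8.77, 9.15 and 8.86 in maternal controls, 8.76, 9.38, 9.71, 9.56 and 9.56 at PFOA1 and 10.20, 10.47, 10.11, 10.08 and 10.15 at PFOA5. Its GenX values in dams were 10.48, 10.04, 9.91, 9.88 and 9.87 at GenX2 and 10.37, 10.32, 10.15, 10.07 and 10.43 at GenX10. Again the PFOA1 group alone overlapped the controls. The fetal arrays gave 9.07, 8.95, 9.09, 8.98 and 9.10 in controls, 9.76, 9.83, 9.80, 9.72 and 10.07 at PFOA1 and from 9.59 to 10.35 with a median of 9.99 at PFOA5. Fetal GenX2 gave 9.93, 10.14, 9.80, 9.80 and 10.20 and fetal GenX10 10.33, 9.85, 10.09 and 9.91. Exposed and control fetuses did not overlap. The rise of Ech1 was 1.27, 1.10 and 1.33 in maternal PFOA5, GenX2 and GenX10 (SE 0.14) and 0.80, 0.92, 0.94 and 1.01 in fetal liver (SE 0.12 to 0.13), with adjusted p of at most 4.0e-04 (limma).

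Decr2, the peroxisomal dienoyl-CoA reductase, read 9.66, 9.57, 9.63, 9.84 and 9.58 in maternal controls, 9.48, 10.26, 10.32, 10.21 and 10.45 at PFOA1 and 10.85, 10.94, 10.78, 10.82 and 10.99 at PFOA5. Dams given GenX had 11.04, 10.71, 10.70, 10.58 and 10.50 at GenX2 and 11.47, 10.91, 10.86, 10.88 and 11.08 at GenX10. Replicate 1 of PFOA1 lay below the lowest control, and the PFOA5 and GenX arrays lay above the highest. In fetuses Decr2 was 9.14, 9.02, 9.27, 9.25 and 9.08 in controls, 10.13, 10.00, 10.25, 10.21 and 10.38 at PFOA1 and from 9.76 to 10.58 with a median of 10.27 at PFOA5. Under GenX the fetal values were 10.27, 10.35, 10.09, 10.08 and 10.67 and, at the higher dose, 10.50, 10.32, 10.47 and 10.43. All exposed fetal values were above the controls. Decr2 rose by 1.22, 1.05 and 1.38 in maternal PFOA5, GenX2 and GenX10 (SE 0.14) and by 1.05, 1.06, 1.14 and 1.28 in the fetal groups (SE 0.12 to 0.13), with adjusted p of at most 3.5e-05 (limma).

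Eci3, a second peroxisomal enoyl-CoA isomerase, stayed at or below the negative controls on every fetal array, where its fitted log2 changes of 0.31 to 0.40 were called in all 4 exposures but give no fold. In maternal liver Eci3 was called at GenX2 only (0.47, adjusted p = 0.0438, limma), and 7 of 10 fits without 1 array lost that call (lowest log2 change 0.42, adjusted p up to 0.12). The call held without control replicate 5, GenX2 replicate 1 or GenX2 replicate 4. Its maternal signal was above the negative controls on 4 GenX2 arrays, 2 GenX10 arrays and none of the other maternal arrays. Pecr, a trans-enoyl-CoA reductase, was called in no exposure, with log2 changes of 0.11 to 0.42 in maternal and -0.23 to -0.09 in fetal liver. All fetal PFOA5 and GenX10 arrays of Pecr were below the controls, as in 1.08% and 6.31% of all genes, at adjusted p of 0.124 in both (limma).

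Alpha-oxidation and branched-chain genes changed less evenly: 2 of 3 were higher in maternal PFOA5 and GenX10, 1 in maternal GenX2 and 1 in each fetal exposure. Hacl1, the lyase that cleaves 2-hydroxy acyl-CoA in alpha-oxidation, had 9.24, 9.37, 9.47, 9.17 and 9.53 in maternal controls, 9.41, 9.42, 9.59, 9.68 and 9.73 at PFOA1 and 10.10, 10.07, 10.19, 9.90 and 10.10 at PFOA5. At maternal GenX2 it was 10.11, 10.11, 9.87, 9.70 and 10.05 and at GenX10 10.30, 9.80, 9.93, 10.07 and 10.04. The latter 3 groups lay wholly above the controls. Fetal Hacl1 was spread widely, with 7.40, 7.46, 8.28, 8.58 and 8.32 in controls, 8.90, 7.99, 9.17, 8.88 and 8.97 at PFOA1 and from 7.99 to 9.01 with a median of 8.42 at PFOA5. Fetal GenX2 arrays read 8.74, 8.79, 8.84, 7.48 and 8.80 and GenX10 arrays 8.59, 8.85, 8.61 and 8.70. Fetal control arrays differed from each other by more than a log2 unit, and all fetal groups but GenX10 overlapped them. Hacl1 rose by 0.72, 0.61 and 0.68 in maternal liver (SE 0.09, adjusted p of at most 2.6e-04, limma), and the fetal log2 changes of 0.51 to 0.77 (SE 0.26 to 0.29) were not called.

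Amacr, the racemase that turns branched chains into the form the oxidases accept, had 8.92, 8.60, 8.75, 8.90 and 8.62 in maternal controls, 8.51, 9.08, 9.04, 9.02 and 9.19 at PFOA1 and 9.19, 9.42, 8.77, 9.10 and 9.30 at PFOA5. For GenX2 the maternal arrays gave 9.73, 9.02, 9.10, 9.06 and 8.94, and for GenX10 9.45, 9.21, 8.99, 9.16 and 9.33. The GenX arrays lay above all controls, and 1 PFOA5 array did not. In fetal liver Amacr read 7.94, 7.71, 7.67, 7.65 and 7.83 in controls, 8.31, 8.37, 8.21, 8.38 and 8.47 at PFOA1 and from 7.66 to 8.72 with a median of 8.29 at PFOA5. Fetal GenX values were 8.28, 8.46, 8.18, 8.05 and 8.58 at GenX2 and 8.18, 8.15, 8.49 and 8.21 at GenX10. All fetal groups except PFOA5 were clear of the controls. Amacr rose by 0.59, 0.47, 0.55 and 0.50 in fetal liver and by 0.40 and 0.47 in maternal PFOA5 and GenX10 (SE 0.13 to 0.14), with adjusted p of 0.0136 to 0.0454 (limma), and maternal GenX2 gave 0.42 with adjusted p = 0.113. Of the fits that left out 1 array, 7 of 10 lost maternal PFOA5 (kept without controls 1 or 4 or PFOA5 replicate 3), 5 of 10 maternal GenX10 (lost without controls 2, 3 or 5 or GenX10 replicates 1 or 5) and 8 of 10 fetal PFOA1 (kept without control 1 or PFOA1 replicate 3). Likewise 8 of 11 lost fetal PFOA5 (kept without control 1 or PFOA5 replicates 1 or 2) and 5 of 9 fetal GenX10 (lost without controls 3 or 4 or GenX10 replicates 1, 3 or 4), with adjusted p up to 0.123. Amacr at fetal GenX2 was kept in each of those fits and lost after a repeated quantile normalization (0.47, adjusted p = 0.051). Without the low-Xist arrays none of the 4 fetal Amacr calls passed (0.45 to 0.57, adjusted p of 0.0566 to 0.106, limma). Phyh, the hydroxylase that starts the breakdown of phytanic acid, was called nowhere, with log2 changes of -0.11 to 0.07 in maternal and -0.20 to 0.06 in fetal liver.

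Hydrogen peroxide metabolism was represented by Cat, the catalase that breaks it down, and Hao1, a glycolate oxidase that makes it. Cat gave 12.01, 12.08, 11.92, 12.12 and 11.99 in maternal controls, 12.10, 12.31, 12.28, 11.94 and 12.17 at PFOA1 and 12.40, 12.68, 12.42, 12.31 and 12.57 at PFOA5. The maternal GenX2 arrays had 12.73, 12.32, 12.14, 12.34 and 12.22 and the GenX10 arrays 12.51, 12.42, 12.24, 12.29 and 12.60. All PFOA5 and GenX values were higher than the controls, by small margins. Fetal Cat was 11.49, 11.32, 11.40, 11.31 and 11.48 in controls, 11.60, 11.61, 11.72, 11.54 and 11.78 at PFOA1 and from 11.36 to 12.00 with a median of 11.67 at PFOA5. It read 11.69, 11.71, 11.59, 11.64 and 11.99 at fetal GenX2 and 11.69, 11.59, 11.86 and 11.63 at fetal GenX10. Only fetal PFOA5 overlapped the fetal controls. Cat rose by 0.45 ± 0.10 (SE) in maternal PFOA5 (adjusted p = 0.0016, limma) and by 0.39 ± 0.10 in maternal GenX10 (0.00886), with 0.32 in maternal GenX2 (0.0646). The fetal call at GenX2 (0.33, adjusted p = 0.0432) was lost in 9 of 10 fits without 1 array (lowest 0.26, adjusted p up to 0.128), the exception being GenX2 replicate 3, and the other fetal groups gave 0.25 to 0.29 with no call. Without maternal GenX2 replicate 3 Cat was called there (0.38, adjusted p = 0.0409), and without fetal PFOA5 replicate 1 it was called at fetal PFOA5 (0.36, 0.0185).

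Hao1 had 9.09, 9.37, 9.30, 9.12 and 9.22 in maternal controls, 9.13, 9.19, 9.53, 9.63 and 9.77 at PFOA1 and 9.41, 9.27, 8.97, 9.20 and 9.05 at PFOA5. Under GenX it had 9.60, 9.92, 9.71, 9.44 and 9.71 at the lower and 9.85, 9.34, 9.92, 9.46 and 9.64 at the higher dose. The GenX2 arrays were above all controls, and the PFOA5 arrays were mixed with them. Fetal Hao1 read 8.17, 8.67, 9.20, 8.38 and 8.23 in controls, 9.18, 8.83, 9.64, 9.23 and 9.48 at PFOA1 and from 8.36 to 9.07 with a median of 8.67 at PFOA5. The fetal GenX values were 9.40, 9.16, 9.26, 8.91 and 9.35 at GenX2 and 9.34, 8.96, 9.19 and 8.90 at GenX10. Fetal control replicate 3 was above many exposed arrays, and every fetal group overlapped the controls. Hao1 was called at maternal GenX2 (0.46, adjusted p = 0.0385, limma), maternal GenX10 (0.42, 0.0243), fetal PFOA1 (0.74, 0.0369) and fetal GenX2 (0.68, 0.017). PFOA5 gave -0.04 in maternal and 0.17 in fetal liver, with no call. The maternal GenX2 and fetal PFOA1 calls were each lost in 8 of 10 fits without 1 array (adjusted p up to 0.121 and 0.143), being kept without maternal control 2 or GenX2 replicate 4 and without fetal control 3 or PFOA1 replicate 2. The maternal GenX10 call was lost without controls 1 or 4 or GenX10 replicates 1 or 3 (up to 0.0835). The fetal GenX2 call was lost without control replicate 1 (0.59, adjusted p = 0.0588) or 5 (0.61, 0.0596), and without control replicate 3 Hao1 was also called at fetal GenX10 (0.73, 0.00646).

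Among the ether lipid genes 2 of 3 were higher in maternal PFOA5, 1 in maternal GenX2, 1 in maternal GenX10 and none in fetal liver. Their fetal log2 changes ran from -0.20 to 0.19. Gnpat, the acyltransferase that starts ether lipid synthesis, read 7.98, 7.81, 8.02, 8.02 and 7.81 in maternal controls, 7.76, 7.88, 7.99, 8.15 and 8.18 at PFOA1 and 8.55, 8.62, 8.54, 8.78 and 8.60 at PFOA5. Its maternal GenX values were 8.69, 8.39, 8.36, 7.99 and 8.10 at GenX2 and 8.64, 8.24, 8.41, 8.30 and 8.56 at GenX10. The PFOA5 and GenX10 arrays were higher than all controls, and GenX2 overlapped them. In fetal liver Gnpat was 8.09, 8.08, 8.20, 8.14 and 8.09 in controls, 8.13, 8.18, 8.11, 8.08 and 7.92 at PFOA1 and from 8.12 to 8.20 with a median of 8.14 at PFOA5. Fetal GenX2 read 8.21, 8.19, 8.14, 8.22 and 8.09 and GenX10 8.15, 8.34, 8.15 and 8.14. The fetal values lay close together whatever the exposure. Gnpat rose by 0.69 ± 0.11 log2 units (SE) in maternal PFOA5 (adjusted p = 4.5e-05, limma), 0.50 in GenX10 (0.00223) and 0.38 in GenX2 (0.0476), and changed by -0.04 to 0.08 in fetal liver. The GenX2 call was lost in 8 of 10 fits without 1 array (lowest 0.28, adjusted p up to 0.168), the exceptions being GenX2 replicates 4 and 5.

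Agps, the synthase of the next step, read 6.48, 6.34, 6.38, 6.26 and 6.73 in maternal controls, 6.30, 6.42, 6.20, 6.26 and 6.63 at PFOA1 and 6.87, 6.82, 6.60, 6.94 and 6.58 at PFOA5. Maternal GenX2 had 6.62, 6.66, 6.88, 6.40 and 6.65 and GenX10 6.81, 6.49, 6.67, 6.66 and 6.59. Every maternal value was at or below the negative controls, so the call at PFOA5 (0.32, adjusted p = 0.0225, limma) gives no fold, and it was lost without controls 2, 3 or 4 or PFOA5 replicates 1, 2 or 4 (adjusted p up to 0.0718). Fetal Agps stood at 7.40, 7.80, 7.61, 7.58 and 7.17 in controls, 7.76, 7.47, 7.38, 7.35 and 7.27 at PFOA1 and from 7.10 to 7.81 with a median of 7.46 at PFOA5. The fetal GenX arrays had 7.77, 7.41, 7.68, 7.83 and 7.36 at GenX2 and 7.59, 7.88, 7.53 and 7.82 at GenX10. The fetal values were higher than the maternal ones in every group, and the exposed groups overlapped the fetal controls. Fetal Agps was above the negative controls on no control or PFOA1 array and on 1 array each of PFOA5, GenX2 and GenX10, so the difference between tissues has no size. Far1, the reductase that supplies the fatty alcohol for ether lipids, was at or below the negative controls on all maternal arrays and on all but 2 fetal ones, with no call in any exposure.

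Of the 4 membrane proteins 3 were higher in maternal PFOA5, GenX2 and GenX10, 2 in fetal PFOA1, PFOA5 and GenX2 and 3 in fetal GenX10. Abcd3, the transporter that brings branched and long-chain acyl-CoA into the organelle, had 10.13, 10.21, 10.33, 10.17 and 10.25 in maternal controls, 10.16, 10.57, 10.63, 10.88 and 10.93 at PFOA1 and 11.60, 11.46, 11.51, 11.51 and 11.44 at PFOA5. Dams of the GenX groups had 11.62, 11.15, 11.07, 10.76 and 11.00 at GenX2 and 11.58, 11.12, 11.40, 11.37 and 11.48 at GenX10. Only PFOA1 overlapped the controls. The fetal signals of Abcd3 were 8.62, 8.87, 8.97, 9.03 and 8.63 in controls, 10.53, 9.74, 10.55, 10.21 and 10.53 at PFOA1 and from 10.24 to 10.89 with a median of 10.65 at PFOA5. At GenX2 they were 10.80, 10.53, 10.73, 10.51 and 10.77 and at GenX10 10.83, 10.90, 10.51 and 10.71. No exposed fetal array reached down to the controls. Abcd3 rose by 1.29, 0.90 and 1.17 in maternal PFOA5, GenX2 and GenX10 (SE 0.13) and by 1.49, 1.80, 1.84 and 1.92 in fetal liver (SE 0.13 to 0.15), with adjusted p of at most 9.5e-05 (limma).

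Pxmp4, a membrane protein of unsettled function, had 9.78, 9.45, 9.26, 9.62 and 9.51 in maternal controls, 9.43, 10.09, 10.05, 9.57 and 9.84 at PFOA1 and 10.23, 10.69, 10.25, 10.36 and 10.62 at PFOA5. Maternal GenX arrays showed 10.65, 9.98, 10.30, 10.46 and 9.98 at GenX2 and 10.89, 10.69, 10.43, 10.42 and 10.58 at GenX10. The PFOA5 and GenX groups were clear of the controls. Fetal Pxmp4 was 9.34, 9.01, 9.03, 9.26 and 9.17 in controls, 9.76, 10.12, 10.08, 10.02 and 10.29 at PFOA1 and from 9.89 to 10.59 with a median of 10.35 at PFOA5. It was 10.18, 10.28, 10.21, 9.91 and 10.68 at fetal GenX2 and 10.34, 10.20, 10.52 and 10.25 at fetal GenX10. Each exposed fetal array was above each control. Pxmp4 rose by 0.91, 0.75 and 1.08 in maternal PFOA5, GenX2 and GenX10 (SE 0.14) and by 0.89, 1.12, 1.09 and 1.17 in fetal liver (SE 0.13 to 0.14), with adjusted p of at most 0.00257 (limma).

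Abcd2, a transporter of very long-chain acyl-CoA, read 8.60, 8.89, 8.91, 8.92 and 9.23 in maternal controls, 8.83, 9.02, 9.69, 9.48 and 9.47 at PFOA1 and 9.42, 9.71, 9.50, 9.67 and 9.56 at PFOA5. The maternal GenX values were 9.05, 10.00, 9.81, 9.58 and 9.71 and 10.20, 9.15, 9.72, 9.61 and 9.92 at GenX2 and GenX10. PFOA5 alone lay wholly above the controls. Fetal Abcd2 was 8.59, 8.93, 9.38, 8.85 and 8.34 in controls, 9.71, 9.19, 9.65, 9.35 and 9.92 at PFOA1 and from 9.02 to 10.18 with a median of 9.55 at PFOA5. Fetal GenX arrays had 9.93, 9.30, 9.71, 8.91 and 9.89 at GenX2 and 9.83, 9.49, 9.41 and 9.87 at GenX10. Fetal GenX10 was the 1 fetal group that cleared the controls. The log2 changes were 0.66, 0.72 and 0.81 in maternal PFOA5, GenX2 and GenX10 (adjusted p = 0.0109, 0.0228 and 0.00354, limma) and 0.73 to 0.83 in fetal liver (SE 0.22 to 0.24), where only GenX10 was called (adjusted p = 0.0285). Of the fits without 1 array, 4 of 10 lost the maternal GenX2 call (controls 1 and 3, GenX2 replicates 2 and 3, adjusted p up to 0.0807) and 4 of 9 the fetal GenX10 call (controls 1 and 5, GenX10 replicates 1 and 4, up to 0.0952). Without fetal control replicate 3, 1 of the low-Xist arrays, Abcd2 was called at fetal PFOA5 (0.89, adjusted p = 0.0244) and fetal GenX2 (0.87, 0.0217), and likewise without PFOA5 replicates 1 or 2 and GenX2 replicates 2 or 4. Pxmp2, a pore-forming membrane protein, was called in no exposure, with log2 changes of -0.18 to 0.07 in maternal and -0.16 to 0.06 in fetal liver.

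The 11 peroxins of import and assembly are given by their step in the pathway, with 2 or 3 genes a step and no test between steps. In maternal PFOA5, GenX2 and GenX10 there were 7, 6 and 7 called, all higher, beside 10.8%, 2.43% and 7.55% of all genes higher. Fetal PFOA1 had none called (limma, 5 or more arrays a group), fetal PFOA5 and GenX2 had 2 higher and 1 lower, and fetal GenX10 had 3 higher and 1 lower. Of all genes 2.34%, 3.9% and 4.42% were higher and 1.05%, 2.83% and 4.85% lower in fetal PFOA5, GenX2 and GenX10. The peroxins that place membrane proteins, Pex3, Pex16 and Pex19, were all higher in the 3 maternal groups, with medians of 0.63, 0.48 and 0.59, and 0, 1, 1 and 2 of the 3 were called in fetal PFOA1, PFOA5, GenX2 and GenX10. Pex19, the chaperone that brings new membrane proteins to the organelle, read 7.97, 7.82, 7.92, 8.07 and 7.94 in maternal controls, 7.82, 8.14, 8.36, 8.18 and 8.35 at PFOA1 and 8.99, 9.07, 8.84, 9.09 and 9.02 at PFOA5. At GenX2 dams had 8.82, 8.59, 8.88, 8.61 and 8.43, and at GenX10 9.31, 8.94, 8.95, 8.87 and 8.94. The PFOA5 and GenX values were all above the controls. The fetal readings of Pex19 were 7.63, 7.67, 7.77, 7.94 and 7.80 in controls, 8.20, 8.12, 8.08, 8.01 and 8.44 at PFOA1 and from 8.01 to 8.67 with a median of 8.42 at PFOA5. They were 8.27, 8.40, 8.10, 8.23 and 8.55 at GenX2 and 8.59, 8.42, 8.45 and 8.22 at GenX10. Every exposed fetal array exceeded the controls, none of which was above the negative controls. Pex19 rose by 1.06, 0.72 and 1.06 in maternal liver (SE 0.10, adjusted p of at most 5.7e-05, limma) and by 0.59, 0.55 and 0.66 in fetal PFOA5, GenX2 and GenX10 (adjusted p of at most 0.00189), which is at least 1.37-fold, 1.33-fold and 1.44-fold when the controls are set at the negative-control threshold. Fetal PFOA1 gave 0.41 with adjusted p = 0.0744.

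Pex3, the membrane receptor of Pex19, read 7.57, 7.84, 7.87, 7.68 and 7.83 in maternal controls, 7.86, 7.98, 7.91, 8.06 and 8.22 at PFOA1 and 8.40, 8.23, 8.36, 8.62 and 8.35 at PFOA5. GenX2 dams had 8.31, 8.26, 8.31, 7.99 and 8.18 and GenX10 dams 8.57, 8.12, 8.28, 8.26 and 8.25. Both GenX groups and PFOA5 lay above the controls. In fetuses Pex3 was 7.08, 7.40, 7.47, 7.29 and 6.83 in controls, 7.56, 7.20, 7.59, 7.44 and 7.46 at PFOA1 and from 7.35 to 7.68 with a median of 7.51 at PFOA5. It was 7.66, 7.41, 7.54, 7.69 and 7.40 at fetal GenX2 and 7.62, 7.67, 7.36 and 7.59 at fetal GenX10. All fetal values were at or below the negative controls and the groups overlapped. Pex3 rose by 0.63, 0.45 and 0.54 in maternal liver (SE 0.09, adjusted p of at most 0.00318, limma). The fetal call at GenX10 (0.34, adjusted p = 0.045) gives no fold and was lost without controls 1, 4 or 5 or GenX10 replicates 1, 2 or 4 (adjusted p up to 0.151), while fetal GenX2 gave 0.33 (adjusted p = 0.0535) and was called without control replicates 2 or 3 or GenX2 replicate 2 (0.36 to 0.39).

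Pex16, which recruits Pex3 to new membranes, read 9.01, 8.67, 8.80, 8.87 and 8.73 in maternal controls, 8.65, 9.02, 9.05, 9.05 and 9.17 at PFOA1 and 9.44, 9.52, 9.14, 9.39 and 9.48 at PFOA5. Dams had 9.62, 9.30, 9.24, 9.30 and 9.03 at GenX2 and 9.60, 9.34, 9.28, 9.31 and 9.51 at GenX10. PFOA5 and both GenX groups were above the controls throughout. Fetal values of Pex16 were 8.32, 8.05, 8.08, 8.26 and 8.42 in controls, 8.44, 8.59, 8.56, 8.54 and 8.93 at PFOA1 and from 8.22 to 8.90 with a median of 8.68 at PFOA5. They were 8.36, 8.63, 8.46, 8.26 and 8.72 at GenX2 and 8.48, 8.33, 8.59 and 8.46 at GenX10. Fetal PFOA1 was clear of the controls and the other 3 groups were not. Pex16 rose by 0.58, 0.48 and 0.59 in maternal liver (SE 0.10, adjusted p of at most 0.00641, limma), and its fetal log2 changes of 0.24 to 0.38 (SE 0.11 to 0.12) were not called, the lowest adjusted p being 0.0575 at PFOA5. Without fetal PFOA5 replicate 1, Pex16 was called at PFOA5 (0.45, adjusted p = 0.00974), likewise without replicate 2 (0.42, 0.0361) or control replicate 5 (0.42, 0.0453). With the erythroid mean as a covariate Pex16 was called in all 4 fetal groups, at log2 changes of 0.29, 0.27, 0.42 and 0.32. That covariate also removed fetal calls: Hao1 at PFOA1 (0.69, adjusted p = 0.0518, limma), Scp2 at PFOA5 (0.36, 0.055) and Pex3 at GenX10 (0.31, 0.0534). Besides Pex16 and Pex14 (given below), it added Abcd2 at GenX2 (0.89, 0.0133) and, at GenX10, Hacl1 (0.81, 0.0333), Cat (0.34, 0.0112) and Hao1 (0.61, 0.035).

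The docking peroxins Pex13 and Pex14, which receive loaded import receptors at the membrane, were both higher in maternal PFOA5 (0.46 and 0.31) and GenX10 (0.36 and 0.32), and Pex13 also in GenX2 (0.30, with Pex14 at 0.20). Pex13 was called in fetal PFOA5 (0.34), GenX2 (0.28) and GenX10 (0.37), but no fetal Pex13 value was above the negative controls, so these give no fold. Maternal Pex13 controls were not above them either, and the maternal rises are at least 1.29-fold, 1.16-fold and 1.21-fold in PFOA5, GenX2 and GenX10. The fetal GenX2 call of Pex13 was lost without controls 1, 2 or 5 or GenX2 replicates 1, 4 or 5 (adjusted p up to 0.0792). Pex14 was not called in fetal liver, with 0.17 to 0.32. With the erythroid mean as a covariate it was called at fetal PFOA5 (0.25, adjusted p = 0.0432, limma), GenX2 (0.37, 0.00292) and GenX10 (0.29, 0.0187), and with arrays centred on their medians at PFOA5 (0.36, 0.0169) and GenX2 (0.33, 0.0244). Without fetal PFOA5 replicate 1 it was called at PFOA5 (0.38, adjusted p = 0.0168), likewise without replicate 2 (0.35, 0.044). After a repeated quantile normalization the maternal Pex14 calls were lost at PFOA5 (0.18, adjusted p = 0.108) and GenX10 (0.20, 0.0943).

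The import receptors Pex5 and Pex7, which bind the enzymes' targeting signals, were higher in maternal PFOA5 (0.33 and 0.38), GenX2 (0.24 and 0.45) and GenX10 (0.35 and 0.44), and neither was called in fetal liver (0.02 to 0.13 and 0.03 to 0.23). Pex5 at maternal GenX2 was lost without control replicate 3 (0.22, adjusted p = 0.053) or GenX2 replicate 1 (0.19, 0.0552). Pex7 was lost at maternal GenX10 without GenX10 replicate 1 (0.36, adjusted p = 0.06), at GenX2 without controls 1 or 4 or GenX2 replicates 1, 3 or 5 (up to 0.106), and at PFOA5 without controls 1 or 4 or PFOA5 replicates 1 or 2 (up to 0.069). The ubiquitin ligases Pex2 and Pex10, which mark receptors for recycling, and Pex6, an ATPase that pulls them out, were called in no exposure. Their log2 changes ran from -0.11 to 0.22, with Pex2 and Pex10 at or below the negative controls throughout, where a change could go unseen.

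Pex26, the membrane anchor of that ATPase, fell by 0.24 in fetal PFOA5 (SE 0.06, adjusted p = 0.0184, limma), 0.29 in GenX2 (SE 0.06, adjusted p = 0.00501) and 0.25 in GenX10 (SE 0.07, adjusted p = 0.0178). Fetal Pex26 had a mean of 7.13 ± 0.06 (SD, n = 5) in controls, 6.89 ± 0.05 (n = 6) at PFOA5, 6.85 ± 0.15 (n = 5) at GenX2 and 6.88 ± 0.09 (n = 4) at GenX10. The arrays of these 3 groups all lay below the controls, as in 1.08%, 2.99% and 6.31% of all genes. No Pex26 value was above the negative controls, so the fall gives no fold. The call was lost at PFOA5 without control replicate 1 (-0.23, adjusted p = 0.0604, limma) and at GenX10 without GenX10 replicate 2 (-0.20, 0.0882). With the replicate block it was lost at PFOA5 (-0.24, 0.0649) and GenX10 (-0.24, 0.0513). Centring the arrays on their medians also lost the GenX10 call (-0.18, 0.0514). Fetal PFOA1 gave -0.13 and the maternal groups -0.10 to -0.06, with no call.

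Pex11a, which elongates the organelle before division, was called higher in maternal PFOA5, GenX2 and GenX10 and in all 4 fetal exposures. It read 7.28, 7.05, 6.90, 7.25 and 7.09 in maternal controls, 7.04, 7.89, 8.35, 8.11 and 8.26 at PFOA1 and 10.01, 9.98, 9.87, 10.01 and 10.02 at PFOA5. The GenX2 dams had 9.77, 8.78, 9.39, 8.86 and 8.47, and the GenX10 dams 10.24, 9.62, 9.54, 9.65 and 9.69. PFOA5 and GenX arrays lay more than a log2 unit above the controls, and PFOA1 replicate 1 among them. Fetal Pex11a was 6.51, 6.29, 6.39, 6.47 and 6.46 in controls, 7.92, 7.68, 7.67, 7.66 and 8.77 at PFOA1 and from 7.90 to 9.27 with a median of 8.76 at PFOA5. Fetal GenX2 gave 8.45, 8.68, 8.46, 8.09 and 9.17 and GenX10 8.72, 8.82, 8.66 and 8.51. The fetal groups were separated from the controls in the same way. Because no control array of either tissue was above the negative controls, the rise is a bound: at least 5.15-fold, 2.71-fold and 4.39-fold in maternal PFOA5, GenX2 and GenX10, and at least 1.03-fold, 1.67-fold, 1.60-fold and 1.72-fold in fetal PFOA1, PFOA5, GenX2 and GenX10. The fitted log2 changes were 2.86, 1.94 and 2.63 (SE 0.21) and 1.51, 2.21, 2.14 and 2.25 (SE 0.21 to 0.24), with adjusted p of at most 2.0e-04 (limma). Maternal PFOA1 gave 0.81 (adjusted p = 0.292) and, without its replicate 1, 1.04 (0.00486). Pex11g, its paralog, was called in no exposure (lower in maternal PFOA5 after the repeated normalization, as given above), with -0.14 to 0.10 in maternal and -0.02 to 0.16 in fetal liver.

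Set side by side, the 11 import and assembly peroxins had median log2 changes of 0.06, 0.33, 0.24 and 0.35 in maternal PFOA1, PFOA5, GenX2 and GenX10, and the 19 matrix enzymes (the oxidation, hydrogen peroxide and ether lipid genes without Far1) 0.23, 0.72, 0.50 and 0.60. In fetal liver the medians were 0.17, 0.21, 0.13 and 0.23 for the peroxins and 0.59, 0.44, 0.52 and 0.50 for the enzymes. The fetal peroxin median rests largely on dim probes: 6 of the 11 (Pex2, Pex3, Pex7, Pex10, Pex13 and Pex26) were above the negative controls on no fetal array, beside 2 of the 19 enzymes (Acox3 and Eci3). In maternal liver that held for 3 peroxins and 1 enzyme. Of the 19 enzymes 14, 13 and 14 were called higher in maternal PFOA5, GenX2 and GenX10 and 10, 10, 11 and 9 in the fetal groups. Of all genes 10.8%, 2.43% and 7.55% were higher in those maternal groups and 0.842%, 2.34%, 3.9% and 4.42% in the fetal groups. The enzyme counts include Agps in maternal PFOA5 and Eci3 in every fetal group, both from signals at or below the negative controls. Taking each array's median difference from the control mean of its tissue, the enzymes lay between 0.64 and 0.76 over the 5 maternal PFOA5 arrays and the peroxins between 0.24 and 0.39. Over the fetal PFOA5 arrays the enzymes ranged from 0.07 to 0.81 and the peroxins from -0.00 to 0.31. These medians describe the lists and were not tested against each other. Repeating the quantile normalization lowered the peroxin median to 0.20 in maternal PFOA5 and 0.14 in fetal GenX10, and the peroxins stayed below the enzymes in each exposure with that setting as well.

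**Figure D3:**
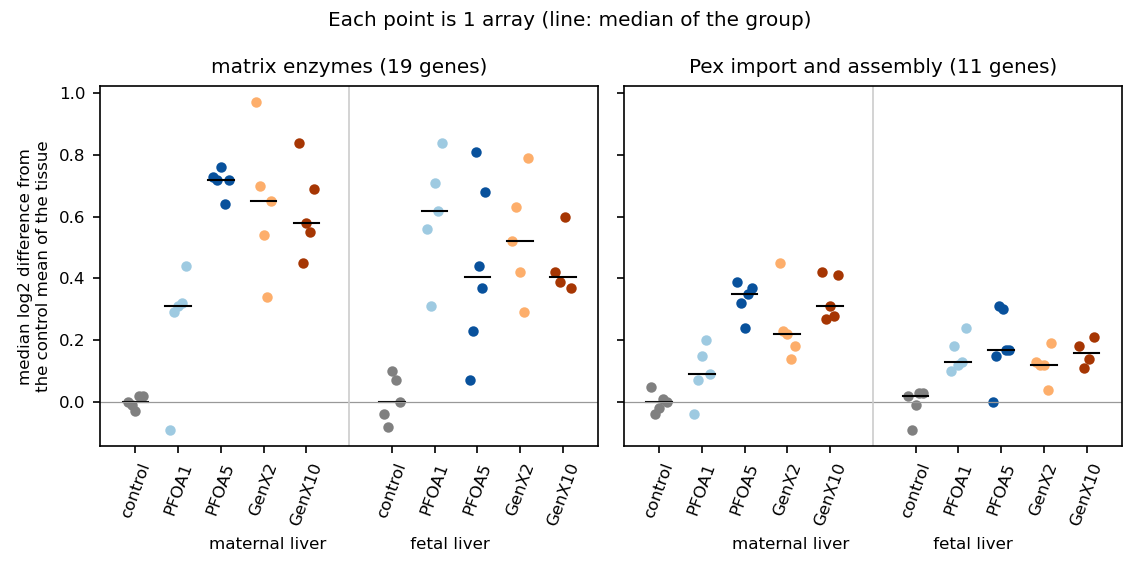
Median log2 difference from the tissue's control mean of the 19 matrix enzymes (left) and the 11 import and assembly peroxins (right) on every array (points), with a line for each group's median. Maternal PFOA5 arrays lie at 0.64 to 0.76 for the enzymes and 0.24 to 0.39 for the peroxins, and 1 maternal PFOA1 array lies at the control level for the enzymes.

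The 2 doses of each compound were compared within each tissue, and whether the dose difference itself differed between the tissues was not tested. Between maternal PFOA5 and PFOA1, 22 members were higher and none lower (18.7% of all genes called), with the largest differences in Pex11a (2.05), Acaa1b (1.47), Acaa1a (1.21), Ehhadh (1.14) and Eci2 (1.13 log2 units). Leaving out 1 array gave 20 to 23 called members: Pex14 was lost without PFOA1 replicates 1 or 4 or PFOA5 replicates 1, 2 or 5 (adjusted p up to 0.0698), Cat without PFOA1 replicate 4 or PFOA5 replicates 2 or 5 (up to 0.081), and Pxmp2 was lower without PFOA1 replicate 2 (-0.26, 0.0463). Pxmp2 was also lower with dim genes left out (-0.23, adjusted p = 0.0329, limma), with array weights (-0.23, 0.0325) and with only the groups compared (-0.23, 0.0194), the last of which lost Pex14 (0.27, 0.0539). After the repeated quantile normalization 18 members were higher and 3 lower, namely Hao1 (-0.44, 0.0125), Pxmp2 (-0.36, 0.0199) and Pex11g (-0.22, 0.0207), and Pex5, Pex14, Pex16 and Cat were no longer called (0.13 to 0.24, adjusted p of 0.0618 to 0.249). Between fetal PFOA5 and PFOA1 no member was called (0.0488% of all genes) by limma, and 6 had an unadjusted p under 0.05, 4 of them higher at PFOA5. With array weights Pex11a was called between the fetal PFOA doses (0.89, adjusted p = 0.0473). The fetal difference of Ehhadh was 0.22 (95% interval -0.03 to 0.47) and that of Acaa1b 0.32 (-0.03 to 0.67). Between GenX10 and GenX2 no member was called by limma in maternal liver (0.237% of all genes), where 8 had an unadjusted p under 0.05, all higher at GenX10, or in fetal liver (0% of all genes), where none had. Pex11a was called between the maternal GenX doses without GenX2 replicate 1 (0.87, adjusted p = 0.0489). The fetal GenX difference of Ehhadh was 0.04 (-0.24 to 0.31) and the maternal one 0.23 (-0.19 to 0.65). The doses of PFOA and GenX were not matched, so no comparison was made between the compounds.

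Maternal PFOA1 was the most uneven group. Replicate 1 read near the controls for Ehhadh (10.54), Acaa1b (9.11), Pex11a (7.04) and Decr2 (9.48), while the other 4 arrays of the group were at 11.94 to 12.36, 10.48 to 10.85, 7.89 to 8.35 and 10.21 to 10.45. Without it, Eci2 (0.64), Ech1 (0.62), Decr2 (0.65), Abcd3 (0.53) and Scp2 (0.43) were called at PFOA1 in addition to Ehhadh, Acaa1b and Pex11a, with adjusted p of at most 0.0378 (limma). Replicate 1 was singled out by the values of these same members, so the calls without it are not independent support for a change at PFOA1. With all 5 arrays 15 members had an unadjusted p under 0.05, all of them higher, beside 4.98% of all genes.

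Unexposed fetal and maternal liver differed in most members, with most oxidation genes lower in the fetus. In fetal against maternal controls 28 members were lower and 4 higher, where 62.2% of all genes were called (42.2% lower and 20% higher), so the count of calls is read against a high background. The median log2 difference of the members was -0.51, beside -0.13 for all genes. In neither tissue's controls was the signal above the negative controls for 5 of the lower members (Pex2, Pex13, Pex11a, Acox3 and Eci3) and 3 of the higher ones (Pex26, Agps and Far1), so these give a call and no size. All 7 core beta-oxidation genes were called lower, Acox3 from such signals. The log2 difference was -1.43 for Ehhadh, -1.42 for Scp2, -1.35 for Acaa1b and -1.09 for Hsd17b4, and lower calls were also made for Abcd3 (-1.39), Hacl1 (-1.34) and Phyh (-1.09), with adjusted p of at most 7.1e-07 (limma). The 1 higher member measured above the negative controls was Gnpat, by 0.19 (adjusted p = 0.042, limma), and its call did not pass after the repeated quantile normalization (0.13, 0.127), with the replicate block (0.19, 0.0635) or without the low-Xist arrays (0.17, 0.0955). The calls of Gnpat, Pex2 and Pxmp4 were lost in 5, 5 and 4 of 10 fits without 1 array. Gnpat was lost without maternal control replicates 2 or 5 or fetal control replicates 2, 3 or 4, Pex2 without maternal 1, 3 or 5 or fetal 2 or 5, and Pxmp4 without maternal 1 or 4 or fetal 2 or 3. Pecr (-0.27, not called) passed without maternal control replicate 3 (-0.35, adjusted p = 0.0323). The erythroid genes, near the negative controls in maternal liver and at 10.00 to 10.35 in fetal controls, move with this contrast, and their part in it was not tested.

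**Figure D4:**
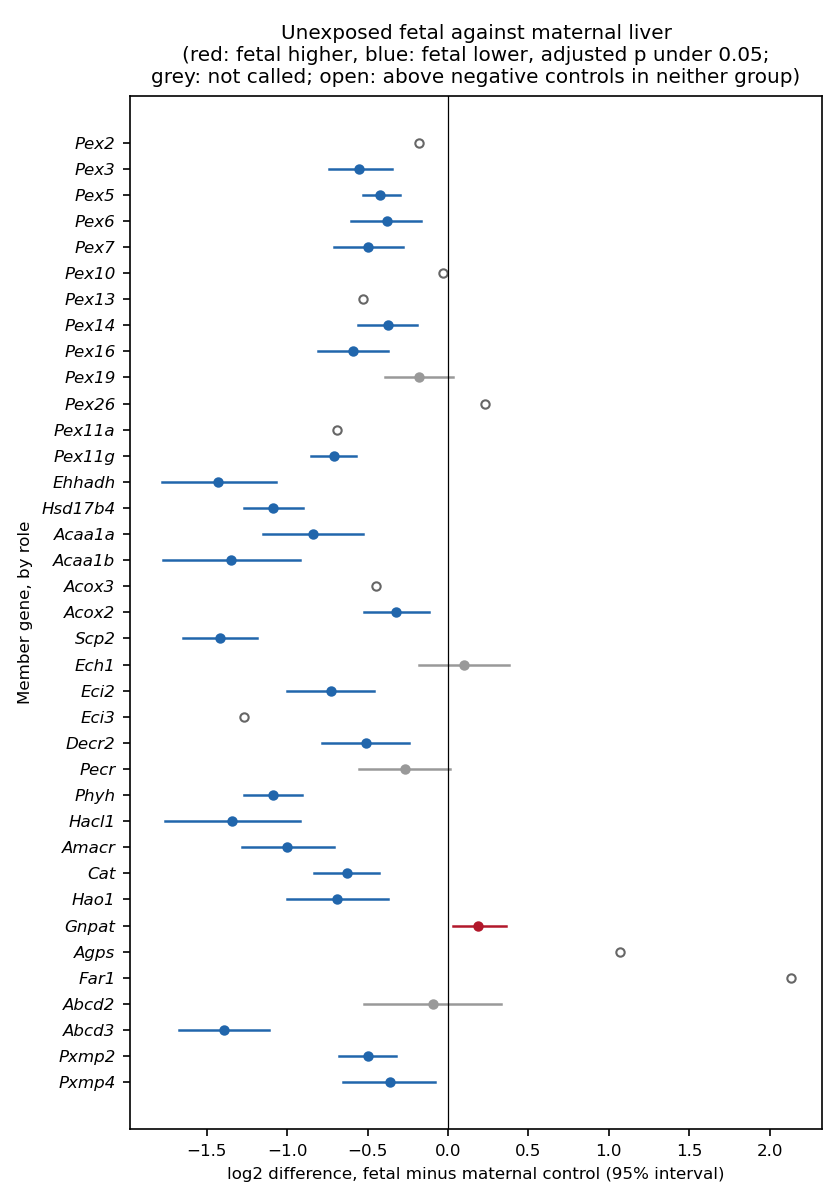
Log2 difference of each member between fetal and maternal control liver (points) with its 95% interval (lines), in red where the fetal and in blue where the maternal signal was higher at an adjusted p under 0.05. Open points without an interval mark the 9 members that were above the negative controls in neither control group, whose place has no size, and Ehhadh, Scp2 and Abcd3 lie farthest to the left.

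The effects themselves were then compared between the tissues, as the fetal change minus the maternal change. At PFOA1 the effect was larger in fetal liver for 3 members (0.179% of all genes called), at PFOA5 larger for 2 and smaller for 3 (4.48%), at GenX2 larger for 3 and smaller for 1 (1.28%), and at GenX10 larger for 2 and smaller for 4 (2.04%). Ehhadh changed more in fetal liver in all 4 exposures, by 1.91, 0.98, 1.27 and 1.08 log2 units at PFOA1, PFOA5, GenX2 and GenX10 (SE 0.24 to 0.26, adjusted p = 8.7e-06, 0.00969, 0.00224 and 0.0119, limma). From control means of 10.47 and 9.04 in maternal and fetal liver, its group means reached 13.01, 12.72 and 12.94 in maternal PFOA5, GenX2 and GenX10 and 12.35 to 12.59 in the fetal groups. Abcd3 changed more in fetal liver at PFOA1 (1.07), GenX2 (0.94) and GenX10 (0.74), and Hsd17b4 at PFOA1 (0.83) and GenX2 (0.60). Eci3 did so at PFOA5 (0.56), from signals at or below the negative controls in both tissues. The control arrays enter both the baseline difference and these effects, so a member with low fetal controls is not independent evidence in both.

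Smaller fetal effects were called for Acox2 at PFOA5 (-0.73, adjusted p = 3.6e-04, limma) and GenX10 (-0.54, 0.0324), Gnpat at PFOA5 (-0.66, 1.5e-04) and GenX10 (-0.43, 0.05 after rounding and just under the threshold), Scp2 at GenX2 (-0.66, 0.0215) and GenX10 (-0.74, 0.00631), and Pex5 at PFOA5 (-0.26, 0.0404) and GenX10 (-0.33, 0.0217). Pex19, with a maternal rise of 1.06 and a fetal rise of 0.59 at PFOA5, differed by -0.47 at an adjusted p of 0.0518, and passed without maternal control 4, maternal PFOA5 3, fetal control 1 or fetal PFOA5 3. Of these calls Acox2, Gnpat and Eci3 at PFOA5, Scp2 and Ehhadh at GenX10, Hsd17b4, Abcd3 and Ehhadh at GenX2 and every call at PFOA1 were kept whichever array was left out, and Ehhadh at PFOA5 was too. The call of Scp2 at GenX2 was lost without maternal GenX2 replicate 1 (-0.60, adjusted p = 0.0562), when the source names were followed (-0.54, 0.152) and without the low-Xist arrays (-0.64, 0.0591). Pex5 at GenX10 was lost in 4 such fits, without maternal control replicate 3, maternal GenX10 replicate 5 or fetal GenX10 replicates 2 or 4 (adjusted p up to 0.0539). Pex5 at PFOA5 was lost in 16 of the 21 fits without 1 array, and Acox2, Gnpat and Abcd3 at GenX10 in 12, 15 and 10 of 19, at log2 differences of -0.22 to -0.27, -0.49 to -0.55, -0.38 to -0.45 and 0.68 to 0.75. The adjusted p rose in those fits to 0.0887, 0.0956, 0.127 and 0.0971.

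**Figure D5:**
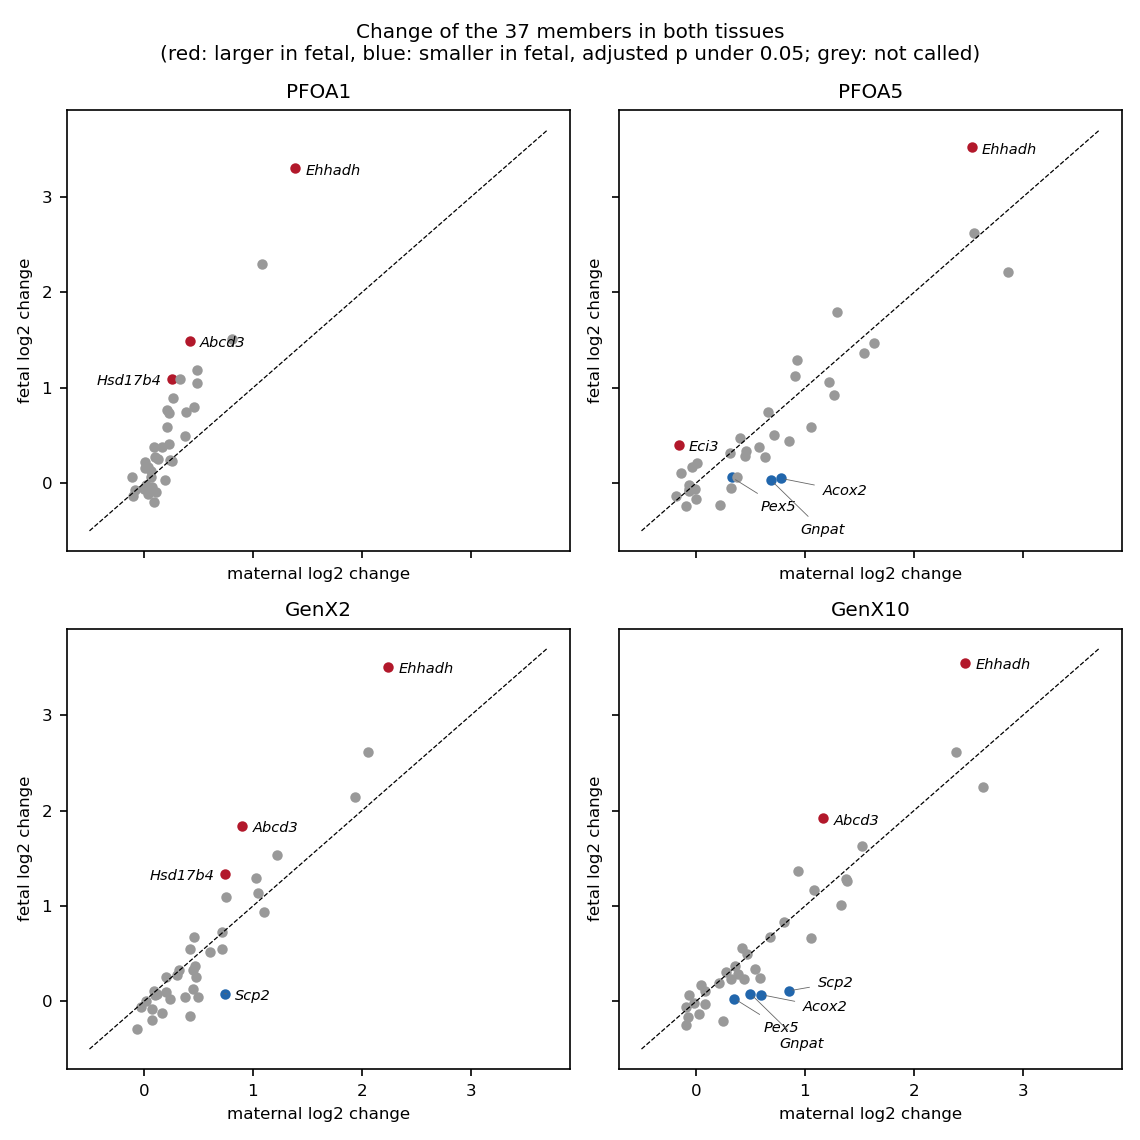
Fetal against maternal log2 change of the 37 members, 1 panel for each exposure, with the line of equal change dashed. Named points differed between the tissues at an adjusted p under 0.05, in red where the fetal change was larger and in blue where it was smaller, and Ehhadh is red in all 4 panels.

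Other peroxisomal genes, 39 of them measured, were counted in the same fits. In maternal PFOA5, GenX2 and GenX10 there were 27, 18 and 26 higher and 3, 0 and 3 lower, none was called in maternal PFOA1 by limma, and in fetal PFOA1, PFOA5, GenX2 and GenX10 there were 11, 15, 15 and 15 higher and 0, 2, 2 and 2 lower. Of all genes 10.8%, 2.43% and 7.55% were higher and 9.04%, 0.937% and 6.22% lower in those maternal groups. The fetal shares were 0.842%, 2.34%, 3.9% and 4.42% higher and 0.111%, 1.05%, 2.83% and 4.85% lower. Lower calls at maternal PFOA5 and GenX10 were thus near the share of all genes. The median log2 changes of the other peroxisomal genes were 0.12, 0.51, 0.34 and 0.51 in maternal and 0.19, 0.20, 0.26 and 0.25 in fetal liver. Acot3 and Acot4, which release fatty acids from acyl-CoA, had control signals not above the negative controls in either tissue. Acot3 was at least 3.67-fold, 2.75-fold and 3.44-fold higher in maternal PFOA5, GenX2 and GenX10 and at least 2.2-fold, 3.13-fold, 3.67-fold and 4.07-fold higher in fetal PFOA1, PFOA5, GenX2 and GenX10. Acot4 was at least 4.05-fold higher in maternal PFOA5 and at least 1.63-fold in fetal PFOA5. Ephx2, an epoxide hydrolase, rose by 1.60, 1.20 and 1.48 in the same maternal and 1.61, 1.71, 1.35 and 1.53 in the fetal groups (SE 0.13 to 0.20), and Crot, which makes acyl-carnitines for export to mitochondria, by 1.06, 0.66 and 0.78 and by 1.21, 1.45, 1.50 and 1.62 (SE 0.11 to 0.12). Nudt7, a coenzyme A hydrolase, rose in maternal PFOA5 (1.60), GenX2 (1.04) and GenX10 (1.32) and was at or below the negative controls in all fetal groups. Among the genes that fell, Baat, which joins bile acids to amino acids, changed by -0.57 in maternal PFOA5 (adjusted p = 0.0113, limma) and -0.53 in maternal GenX10 (0.0255), and Pipox, an oxidase of pipecolic acid, by -0.64 (0.00727) and -0.52 (0.0351).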

How the data were processed

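Liver RNA from 25 dams and 25 fetuses was measured on 50 Affymetrix whole-transcript arrays. The values are the authors' deposited log2 signals, made by RMA with the mm10 build per the submitters' processing notes. Whether the 50 arrays went through RMA as a single batch is unstated in the labels. RNA had been kept at an integrity number above 5 per the labels' protocols. Probes were named through the platform annotation: 30604 of 32750 annotated probes had 1 gene symbol, 612 had several symbols of 1 gene and 1534 with several genes were left out. The brightest probe was kept for 364 genes with several, which left 30743 genes, none filtered on level.

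Each tissue was fitted with limma 3.58.1 (lmFit and eBayes, R 4.3.3) over its 25 arrays and 5 groups. All 50 arrays in 10 groups were fitted for the tissue difference and for the difference of effects. The labels match the fetal livers to the dams without naming the pairs, so dam and fetus arrays were treated as independent there. Adjusted p-values are Benjamini-Hochberg values over the 30743 genes of a comparison, two-sided, and called means under 0.05. Errors are standard errors of the fit unless SD is named. A signal was counted as above the negative controls where it exceeded the 95th percentile of 5222 negative control features on that array (7.37 to 8.18). Where no array of 1 group did, a fold is a lower bound against that threshold. The scripts were tested on simulated data. The number of arrays limits the precision.

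The members, role lists and alternatives were chosen with earlier results of these data known. Array values are printed for up to 3 members of each of the 8 role lists, those with the largest called change in any exposure. Of the other peroxisomal genes the 5 with the largest called change are named, and Baat and Pipox were chosen after their values were seen. Alternatives were a repeated quantile normalization, centring on array medians, array weights, trended and robust moderation, leaving out dim genes, a 1.5-fold minimum, only the groups compared, the mean of probes, a replicate block, the label and sex checks, the erythroid mean as a covariate, and leaving out each array. Tables and figures used Python 3.11.15, pandas 2.3.3, numpy 2.4.6 and matplotlib 3.10.9. Protein sequences were not used here.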

Additional observations from a re-analysis of the deposited data

Results flagged for a closer look

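Each of 190 sets of array values (19 members in 10 groups) was searched with Dixon's criterion, the gap between an extreme array and its nearest neighbour over the range of the group, and 17 held an array past the critical value. Chance passes it in about 1 in 20 independent groups, but these sets share their arrays, so the 17 are not read against that share. Maternal PFOA1 replicate 1 stood below the rest of its group in Pex16 (8.65), Ehhadh (10.54), Acaa1a (8.46), Acaa1b (9.11), Decr2 (9.48) and Amacr (8.51). Maternal GenX2 replicate 1 stood above it in Acaa1b (12.04), Ech1 (10.48) and Amacr (9.73). Maternal GenX10 replicate 1 did in Pex19 (9.31) and Pex11a (10.24). Pex11a was low in maternal PFOA5 replicate 3 (9.87) and high in fetal PFOA1 replicate 5 (8.77). Hacl1 was low in fetal PFOA1 replicate 2 (7.99) and fetal GenX2 replicate 4 (7.48), Acaa1a was low in fetal GenX10 replicate 4 (8.93), and Gnpat stood apart in fetal GenX10 replicate 2 (8.34). The part of RNA quality or tissue sampling in these arrays was not tested.

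The change against control differed between fetal and maternal liver in 18 cases by limma, given as the fetal minus the maternal log2 change. Ehhadh differed by 1.91 at PFOA1, 0.98 at PFOA5, 1.27 at GenX2 and 1.08 at GenX10, Hsd17b4 by 0.83 at PFOA1 and 0.60 at GenX2, and Abcd3 by 1.07 at PFOA1, 0.94 at GenX2 and 0.74 at GenX10. Eci3 differed by 0.56 at PFOA5. The fetal change was the smaller for Pex5 (-0.26 at PFOA5 and -0.33 at GenX10), Acox2 (-0.73 at PFOA5 and -0.54 at GenX10), Gnpat (-0.66 at PFOA5 and -0.43 at GenX10) and Scp2 (-0.66 at GenX2 and -0.74 at GenX10).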

How the results depend on the processing

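Of the 137 calls of members against control, 112 were kept whichever array was left out, 101 under every other setting apart from the 1.5-fold minimum, and 100 under both. Over 629 member results and 15371 values under alternatives, 14871 kept their side of the threshold, 375 fell short of it and 125 passed it anew. None changed sign where a call was made, and the direction of changes called in neither setting was not compared. Leaving out 1 array gave 0 to 8 called members in maternal PFOA1, 22 to 25 in PFOA5, 18 to 24 in GenX2 and 22 to 25 in GenX10, 0 to 1 between the maternal GenX doses, 11 to 13, 14 to 20, 14 to 18 and 14 to 17 in the fetal groups in the same order, and 29 to 32 between the control tissues. For the differences of effects it gave 3 to 5, 4 to 6, 3 to 5 and 2 to 5.

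A 1.5-fold minimum lowered the counts to 14 in maternal GenX2, 16 in maternal GenX10, 12 between the maternal PFOA doses, 11 in fetal GenX2, 18 between the control tissues and 3 for the differences of effects at PFOA5 and at GenX10. Maternal PFOA1 had 2 called members with dim genes left out (fewer genes tested), 3 with array weights and 0 with only the groups compared. Array weights gave 1 member between the fetal PFOA doses and 11 for the difference of effects at PFOA5, and the cause was not tested. The median change of the import and assembly peroxins moved to 0.20 in maternal PFOA5, 0.23 in maternal GenX10 and 0.14 in fetal GenX10 after a repeated quantile normalization, and to 0.19 in fetal GenX2 and 0.30 in fetal GenX10 with arrays centred. That of the matrix enzymes in maternal PFOA5 moved to 0.57 and 0.78. After the repeated normalization the maternal calls of Pex7 (0.30, adjusted p = 0.0604), Amacr (0.24, 0.177) and Abcd2 (0.50, 0.0615) were lost at PFOA5, as were Pex5 (0.16, 0.0537), Hao1 (0.37, 0.0901), Gnpat (0.31, 0.062) and Abcd2 (0.64, 0.0509) at GenX2 and Amacr (0.34, 0.0678) and Hao1 (0.27, 0.133) at GenX10. In fetal liver that normalization lost Scp2 at PFOA5 (0.33, adjusted p = 0.171, limma), Cat at GenX2 (0.29, 0.0512) and Pex3 (0.32, 0.0765) and Abcd2 (0.73, 0.0553) at GenX10. Fetal Amacr was lost at PFOA5 (0.43, 0.103), GenX2 (0.47, 0.051) and GenX10 (0.42, 0.0979). With dim genes left out, Agps in maternal liver and Eci3, Pex13, Pex26 and Pex3 in fetal liver were not tested.

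The replicate numbers of the titles were not taken as pairs. With group means removed, same-numbered arrays correlated at -0.47 to 0.37 in maternal and -0.59 to 0.66 in fetal liver, with 15 of 50 and 18 of 46 pairs over 0.1. Their medians were -0.08 and -0.03, beside 0.01 and -0.00 for other numbers. Same-numbered dam and fetus arrays of 1 treatment correlated at -0.46 to 0.42 (median -0.13, beside 0.03 for other numbers), with 9 of 24 pairs over 0.1. Such correlations cannot settle which fetus belongs to which dam. With the replicate block 1, 24, 21 and 25 members were called in maternal PFOA1, PFOA5, GenX2 and GenX10, 13, 14, 18 and 17 in the fetal groups, 30 between the control tissues, and 3, 4, 4 and 2 for the differences of effects. Centring changed the split of all called genes from 3329 higher and 2780 lower to 3806 and 1259 in maternal PFOA5, from 2320 and 1912 to 3027 and 640 in maternal GenX10, from 3129 and 2619 to 3711 and 897 between the maternal PFOA doses, from 718 and 324 to 1018 and 234 in fetal PFOA5, from 1200 and 870 to 2078 and 531 in fetal GenX2 and from 1360 and 1491 to 1992 and 823 in fetal GenX10. Between the control tissues the repeated quantile normalization moved it from 6156 and 12960 to 6742 and 8663. The signal limits 9 members in maternal and 15 in fetal liver that were above the negative controls on no control array.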
